A study of Mus musculus with 12 samples.

Results

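This comparison set the transcripts of short-term hematopoietic stem cells (ST-HSC) from PU.1 Q202L knock-in (KI) mice against those of wild-type (WT) ST-HSC. Its members are the 3 arrays titled as Q202L ST-HSC and the 3 arrays titled as WT ST-HSC, so 6 of the 12 arrays of the series. Every probe set other than the Affymetrix control sets was read as KI minus WT on the log2 scale, and 18193 genes were each represented by their brightest probe set. Positive values stand for more signal in KI and negative values for less.

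The study asked what follows in blood formation when PU.1 carries a point mutation that was chosen because it binds DNA and no longer binds c-Jun. The KI animals were homozygous for Q202L, a single amino acid change in the DNA-binding Ets domain, brought into the endogenous locus with a loxP-flanked selection cassette that Cre removes, and a pair of founder lines was kept. KI and WT animals came from matings of heterozygotes, and the sample records give newborn liver, the strain C57Bl/6 and littermates for both groups. GMP and GMP-like cells of the same genotypes make up the other 6 arrays.

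Several statements about the samples disagree between the sources. The sample records give a lineage-negative, Sca-1+, c-kit+, CD150- and CD48+ gate, while the title of the series and the paper give CD48- cells. The paper's sorts used fetal liver, and its reporting summary names a mixed background in which C57 is 1 of the strains. The records tie no sample to an animal or litter, so the p-values rest on how far these samples lie apart, and that distance could be technical.

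PU.1, encoded by Spi1, is an Ets family transcription factor that recognizes a purine-rich core with GGAA and is required for monocytes, macrophages, B cells and early T cells. It activates genes for cytokine receptors, phagocyte enzymes and antigen presentation, often beside partner factors such as c-Jun, C/EBP and IRF proteins, and it is known to oppose GATA factors, which drive erythroid, megakaryocytic and mast cell genes. ST-HSC are multipotent cells with limited self-renewal, in which low transcription of genes of several lineages is known to precede commitment.

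The 3 KI arrays correlated with each other at 0.982 to 0.990 across probe sets and the 3 WT arrays at 0.963 to 0.975, and the array medians lay between 5.00 and 5.10. Xist, the transcript of the inactive X chromosome, was read at 3.57, 3.59 and 3.78 in the KI arrays and at 11.74, 3.70 and 11.25 in the WT arrays. The Y-linked gene Kdm5d stood at 9.73, 9.37 and 9.69 in KI and at 2.04, 9.68 and 2.45 in WT. So 2 of the 3 WT arrays, replicates 1 and 3, had high Xist with low Kdm5d, and no KI array did. The same count, 2 of 3, was found in the WT GMP arrays. Values without these 2 WT arrays, which leave 1 WT array of low Xist, are given where they bear on a list or a leading gene.

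Among the genes called lower in KI ST-HSC were H2-Aa of antigen presentation, Csf1r of macrophages and Il7r of lymphoid progenitors, and among those called higher were Gfi1b, Kel and Cpa3 of the megakaryocytic, erythroid and mast cell lineages. Of the 18193 genes, 311 were lower in KI (1.71% of genes) and 243 were higher (1.34%) at an adjusted p under 0.05 by limma with Benjamini-Hochberg adjustment over all probe sets. The falls reached further than the rises: 44 called genes were lower by more than 4 on the log2 scale and 6 were higher by that much, and at a limit of 2 the counts were 171 and 90. The median difference over all genes was -0.02. In every called gene the 3 KI arrays lay on 1 side of the 3 WT arrays, as they did in 22.1% of all genes. Leaving out 1 array gave 104 to 238 higher and 169 to 332 lower genes, fewest without KI replicate 2. Among the 161 called lower genes with several probe sets, 71 had at least 2 called lower, and no called gene had a probe set called the other way. In 43 of the lower genes the KI mean was under the lowest 25th percentile of the 6 arrays, where RMA values hold mostly background, so the size of their fall depends on that floor. Ctss, Il7r and Tlr3 are among them, and H2-Aa and Mpeg1 lie within 0.2 of it. In 14 of the higher genes the WT mean was under the same percentile, so the size of their rise depends on the floor too. Kel, Heph, Npnt and Pdzph1 are among these. In sorted cells measured in bulk, fewer cells of a type and less RNA per cell cannot be told apart.

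**Figure D1:**
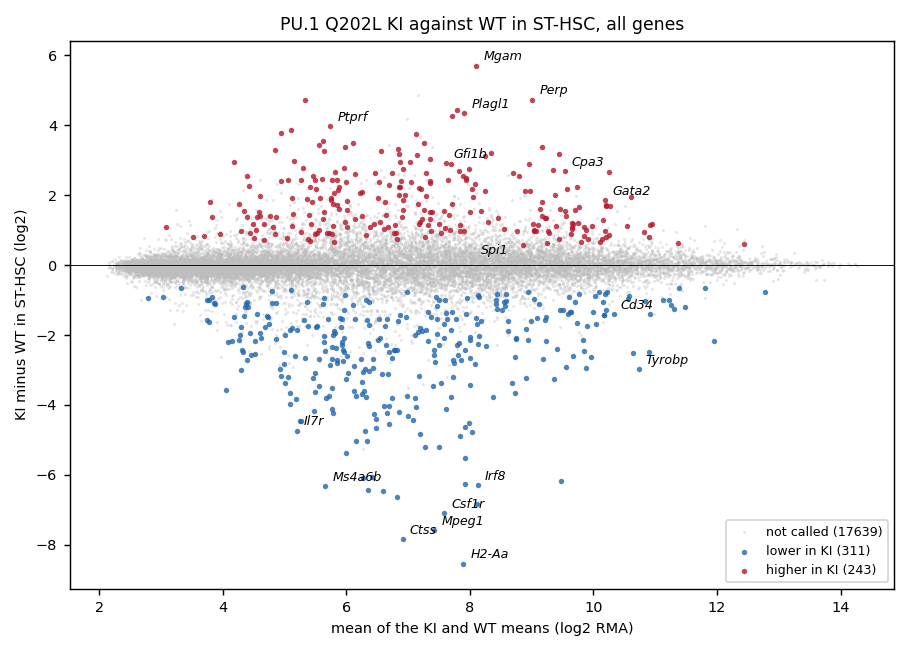
Each point is 1 gene, with the mean of its KI and WT levels (log2 RMA) on the horizontal axis and KI minus WT in ST-HSC (log2) on the vertical axis. Blue points are the 311 genes called lower and red points the 243 called higher, and the falls extend to -8.54 for H2-Aa while the largest rise is 5.71 for Mgam.

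Spi1 itself did not differ detectably. Its probe set read 8.08, 8.18 and 8.16 in KI and 8.03, 7.89 and 7.98 in WT, a difference of 0.17 ± 0.19 (SE, adjusted p = 0.798, 95% interval -0.24 to 0.58). The KI arrays lay just above the WT arrays, and the interval leaves room for a fall no further than -0.24 and a rise no further than 0.58. The probe sets measure transcript level and not the mutated base. By their brightest probe sets none of the 12 Ets factors measured passed the test in either direction, and their median was -0.15. Of the dimmer probe sets of the Ets factor Elk3, 1 was called lower (-0.83, adjusted p = 0.033) and 1 higher (1.42, adjusted p = 0.0161).

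Of the AP-1 factors, the family of c-Jun, 1 of 15 rose and none fell. That gene was Fosl1, which encodes the Fos-related protein Fra-1 and read 7.01, 6.55 and 6.52 in KI and 5.61, 4.39 and 4.49 in WT (1.86 ± 0.30, SE, adjusted p = 0.00871). Jun did not pass, at 7.44, 7.44 and 7.83 in KI and 8.41, 9.53 and 7.61 in WT. In Jun WT replicates 1 and 2 lay above all KI arrays and WT replicate 3 within them. Fos and Junb also did not pass, with differences of -0.75 (adjusted p = 0.707) and -0.29 (adjusted p = 0.59).

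Interferon regulatory factors include partners of PU.1 on composite DNA elements, and 3 of 8 measured fell. Irf8, needed for monocytes and dendritic cells, read 4.55, 4.52 and 5.86 in KI and 11.13, 10.95 and 11.75 in WT, 78.9-fold lower in KI (-6.30 ± 0.40, SE, adjusted p = 3.66e-05). All 3 KI arrays were more than 5 log2 units under the lowest WT array. Irf7, an amplifier of type I interferon, read 5.36, 5.74 and 5.38 in KI and 7.63, 6.92 and 8.19 in WT (-2.09, adjusted p = 0.00302). Irf9, a subunit of the interferon-activated complex ISGF3, differed by -1.70 (adjusted p = 0.0294). Without the WT arrays of high Xist its adjusted p was 0.246. Irf4, the other IRF partner of PU.1 in B cells, differed by -0.89 and did not pass (adjusted p = 0.148). Irf5 did not pass by its brightest probe set (0.09), though its dimmer probe set was called lower (-2.36, adjusted p = 0.00167).

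Of the factors of myeloid fate 4 of 16 were called lower and 2 higher. The count of higher factors was 0 when KI replicate 2 or 3 or WT replicate 2 was left out, and 1 when KI replicate 1 or WT replicate 3 was. Klf4, a factor of monocyte differentiation, read 3.30, 3.33 and 3.37 in KI and 6.80, 6.67 and 6.61 in WT, with less than 0.2 between the replicates of either group (-3.36 ± 0.42, SE, adjusted p = 0.00201). Tfec, a macrophage-restricted relative of Mitf, read 4.94, 5.17 and 4.38 in KI and 8.98, 8.67 and 8.26 in WT (-3.81, adjusted p = 3.83e-05). Id2, an inhibitor of E proteins that dendritic and innate lymphoid cells need, fell from 10.36, 9.34 and 11.08 in WT to 6.39, 6.14 and 6.94 in KI (-3.77, adjusted p = 0.00499). Mef2c, which favors monocytic and lymphoid over granulocytic fate, had all 5 of its probe sets called lower, and the brightest read 8.96, 9.12 and 9.53 in KI and 10.75, 10.88 and 10.99 in WT (-1.67, adjusted p = 0.00601).

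Cebpa and Egr1 moved the other way. Cebpa, the factor required for granulocyte-monocyte progenitors, read 10.25, 10.21 and 10.31 in KI and 9.68, 8.99 and 8.46 in WT (1.21 ± 0.25, SE, adjusted p = 0.0305). The KI arrays were within 0.1 of each other, and the WT arrays spread over 1.2 below them. Egr1, an immediate early gene that is also known as a monocytic factor and as a brake on stem cell division, read 8.23, 8.52 and 9.08 in KI and 6.08, 5.19 and 6.67 in WT (2.63, adjusted p = 0.0181). Among the lymphoid factors 4 of 19 fell. They were Id3, another E protein inhibitor (-2.07, adjusted p = 0.00268), the B cell coactivator Pou2af1 (-2.99, adjusted p = 0.0167), the chromatin organizer Satb1 (-1.10, adjusted p = 0.00347) and Sox4, a factor of early B cells (-1.06, adjusted p = 0.0417). Ebf1 and Pax5, which set the B lineage, did not pass by their brightest probe sets (differences of -0.79 and -0.25), though 2 of the 5 probe sets of Ebf1, dimmer ones, were called lower (-1.02, adjusted p = 0.0465, and -1.29, adjusted p = 0.0285). Ikzf1, a lymphoid zinc finger factor, differed by 0.05 with a 95% interval of -0.31 to 0.41. Without any 1 of the KI arrays or WT replicate 1, 2 of the lymphoid factors were called lower.

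Of the receptors for colony-stimulating and growth factors 2 of 15 fell and 2 rose. Csf1r, the M-CSF receptor of monocytes and macrophages, read 3.49, 3.32 and 5.27 in KI and 11.55, 10.97 and 10.88 in WT (-7.10 ± 0.83, SE, adjusted p = 0.00149). KI replicate 3 stood above the other two but more than 5 log2 units under every WT array. Against the WT array of low Xist alone the difference was -6.94 with an adjusted p of 0.0606. Flt3, the receptor of lymphoid-primed progenitors, read 7.64, 7.79 and 8.08 in KI and 10.83, 10.28 and 10.47 in WT (-2.69, adjusted p = 0.0215).

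Csf2rb, the common beta chain of the receptors for IL-3, IL-5 and GM-CSF, rose to 11.21, 11.01 and 10.96 in KI from 9.72, 8.73 and 9.57 in WT (1.72 ± 0.30, SE, adjusted p = 0.0149). Its GM-CSF partner chain Csf2ra did not pass, at a difference of -1.63 (adjusted p = 0.201). Igf1r rose by 1.29 (adjusted p = 0.0263). Csf3r, the G-CSF receptor, and Kit, the receptor for stem cell factor, did not pass, with differences of 0.65 and -0.20. With any 1 KI array left out 0 of these receptors were called higher and 1 lower, without WT replicate 3 the counts were 1 and 1, and without WT replicate 2 they were 1 and 2. Without WT replicate 1 they were 2 and 1.

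Of the interleukin and interferon receptor chains, 5 of 24 fell and none rose. Il7r, on which lymphoid progenitors depend, was read at 2.83, 3.20 and 2.46 in KI and at 7.44, 7.90 and 7.36 in WT (-4.74 ± 0.69, SE, adjusted p = 0.00523). The other falls were those of the interleukin-1 receptor Il1r1 (-3.05), the interleukin-13 receptor chain Il13ra1 (-2.29, with 4 of its 5 probe sets called), the interferon receptor chains Ifngr2 (-1.41) and Ifnar2 (-1.02), at adjusted p-values from 0.00189 for Il13ra1 to 0.0327 for Ifngr2. Il6ra differed by -2.56 and narrowly did not pass (adjusted p = 0.0518). The count of 5 became 3 without any 1 array except WT replicate 2, and 3 without both WT arrays of high Xist.

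Some transcripts of surface proteins used to sort blood cells differed between KI and WT. Of these proteins, c-kit, CD150 and CD48 are in the gate of these cells, while CD34 and CD16/32 are in the paper's GMP gate. Slamf1 is the gene of CD150, and the gate took CD150- cells. It read 6.50, 6.54 and 6.54 in KI and 4.90, 4.86 and 4.05 in WT, so KI was higher, and all 3 of its probe sets were called (1.92 ± 0.22, SE, adjusted p = 0.00132). Cd34 read 9.33, 9.64 and 9.87 in KI and 11.03, 10.98 and 11.06 in WT, the WT arrays lying within 0.1 of each other (-1.41, adjusted p = 0.00103). Fcgr3, which encodes the CD16 part of the CD16/32 stain, rose to 11.33, 11.04 and 10.97 from 9.56, 9.66 and 9.09 (1.68, adjusted p = 0.00165). Ptprc, the pan-leukocyte phosphatase CD45, read 7.69, 7.16 and 7.41 in KI and 9.82, 10.01 and 10.31 in WT (-2.62, adjusted p = 0.0128). Kit, positive in the gate, and Cd48, on which the sources disagree, did not pass: Cd48 read 11.66, 12.06 and 11.80 in KI and 11.58, 11.66 and 11.82 in WT (0.16, 95% interval -0.16 to 0.47). Without the WT arrays of high Xist, Ptprc kept its size (-2.59) and not its call (adjusted p = 0.161). Of the 13 surface markers listed, not all of which are in this gate, 4 fell and 2 rose. The count of falls was 2 when KI replicate 2 or 3 or WT replicate 3 was left out.

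MHC class II presentation genes had the lowest median of the lists. Of 16 genes measured, 10 fell and none rose, with a median of -3.80 against -0.02 over all genes. H2-Aa, the class II alpha chain of I-A, read 2.95, 3.99 and 3.92 in KI and 11.85, 11.74 and 12.88 in WT, the largest fall of any gene (-8.54 ± 0.80, SE, adjusted p = 0.000412). Its beta chain partner H2-Ab1 read 6.64, 6.28 and 6.25 in KI and 12.17, 12.18 and 13.35 in WT (-6.18, adjusted p = 0.0028), and the I-E beta chain H2-Eb1 read 4.21, 5.48 and 4.69 in KI and 10.72, 10.46 and 11.93 in WT (-6.25, adjusted p = 0.000752). In each of these genes WT replicate 3 was the highest array and the KI arrays were more than 4 log2 units under the lowest WT array.

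Other called members act around these chains. Cd74, the invariant chain that guides class II molecules to endosomes, read 4.57, 4.37 and 5.16 in KI and 10.97, 10.93 and 12.68 in WT (-6.82, adjusted p = 0.00149). Ctss, the protease that trims it, read 3.58, 2.71 and 2.69 in KI and 11.10, 10.04 and 11.35 in WT (-7.84 ± 0.51, SE, adjusted p = 3.83e-05). The peptide-loading genes H2-DMa, H2-DMb2 and H2-Ob fell too, with differences of -3.38, -3.76 and -3.84, as did the ubiquitin ligase Marchf1 (-4.25), which turns class II molecules over, and the costimulator Cd86 (-4.42). Ciita, the class II transactivator, did not pass at 4.39, 4.38 and 4.61 in KI and 4.79, 5.29 and 6.16 in WT (-0.95, adjusted p = 0.165), nor did the class II genes H2-Oa (-0.45, adjusted p = 0.526) and H2-Eb2 (-0.03, adjusted p = 0.957). Left out 1 at a time, the 6 arrays gave 8 to 11 fallen members, and without the WT arrays of high Xist 9 fell.

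Class I molecules present peptides made inside the cell. All 13 measured class I and immunoproteasome genes were below 0, with a median of -0.67, and 2 fell: Tap1, a peptide transporter subunit (8.31, 8.35 and 8.62 in KI, 10.15, 9.67 and 10.15 in WT, adjusted p = 0.00684), and the immunoproteasome subunit Psmb8 (-1.20, adjusted p = 0.00701). Against the WT array of low Xist alone neither passed (adjusted p = 0.15 and 0.0578) and the median was -0.27.

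Phagocytes kill and digest what they take up with oxidants and lysosomal enzymes, and 10 of 22 NADPH oxidase and lysosomal genes fell, 1 rose and the others did not pass (median -1.10). Against the WT array of low Xist alone 7 fell, 0 rose and the median was -0.60. Cybb, the catalytic subunit of the oxidase, read 4.29, 3.86 and 3.64 in KI and 9.62, 7.74 and 8.64 in WT (-4.74 ± 0.50, SE, adjusted p = 0.000865). Its cytosolic subunits Ncf1 (-1.75, adjusted p = 0.0039) and Ncf4 (-2.43, adjusted p = 0.0221) fell as well, and Cyba, the membrane partner of Cybb, did not pass (-0.68). The lysozymes Lyz1 and Lyz2, whose sequences are closely related so that signal may be shared, both fell. Lyz1 read 8.0, 7.47 and 7.71 in KI and 10.89, 10.98 and 11.09 in WT, and Lyz2 read 8.50, 8.56 and 8.18 in KI and 11.34, 11.42 and 11.25 in WT. Replicates of Lyz2 in WT lay within 0.2 of each other, and the KI arrays were 7.6-fold lower (adjusted p = 0.000575).

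The proteases of the lysosome were not uniform. Ctsh fell by 3.75 (adjusted p = 0.000488) and Lgmn fell by 2.56 (adjusted p = 0.00126), while Ctsd rose to 10.32, 10.18 and 10.42 from 9.62, 9.59 and 9.41 (0.76, adjusted p = 0.00776), and Ctsb, Ctsc, Ctsl and Ctsz did not pass. Psap, the precursor of the saposins, read 9.61, 9.17 and 9.36 in KI and 11.49, 11.52 and 12.70 in WT (-2.52, adjusted p = 0.00174), and the hexosaminidase subunit Hexa fell by 1.25 (adjusted p = 0.0271).

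Of the monocyte and macrophage genes, 8 of 33 fell and 1 rose, and 30 were below 0 (median -0.80). Mpeg1, a pore-forming protein of phagocytes, read 3.41, 3.73 and 3.74 in KI and 10.85, 10.66 and 12.12 in WT (-7.58 ± 0.40, SE, adjusted p = 1.18e-05). Aif1, a calcium-binding protein of macrophages, read 3.29, 3.35 and 3.91 in KI and 9.41, 9.17 and 11.82 in WT (-6.62, adjusted p = 0.00244). Ccr2, the receptor that brings monocytes out of bone marrow, fell by 2.84 (adjusted p = 0.00784) and Lgals3, a galectin of macrophages, fell by 2.03 (adjusted p = 0.0233).

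Markers of tissue macrophages mostly did not pass. C1qa, C1qc, Marco, Vsig4 and Mertk differed by -0.10, 0.01, -0.12, 0.04 and -0.01, while Cd163, a hemoglobin scavenger receptor, rose to 6.23, 5.81 and 6.05 from 4.63, 4.72 and 5.18 (1.19, adjusted p = 0.00428). The mean log2 level over the 33 genes was 4.11 to 4.35 in the KI arrays and 5.87 to 6.10 in the WT arrays. F13a1, a monocyte coagulation factor, was high in WT replicates 1 and 2 and not in replicate 3 (10.54, 10.35 and 6.83, against 5.82, 6.11 and 6.16 in KI) and did not pass (adjusted p = 0.0707).

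The Ms4a cluster holds genes of small membrane proteins of myeloid and lymphoid cells, and 4 of 13 fell. Ms4a6b read 2.31, 2.62 and 2.57 in KI and 9.35, 8.37 and 8.76 in WT, and had the smallest adjusted p of the named genes (-6.32 ± 0.27, SE, adjusted p = 8.97e-06). Ms4a6c fell by 6.10 (adjusted p = 1.05e-05), Ms4a4c fell by 3.61 (adjusted p = 0.00518) and Ms4a3, a marker of granulocyte-monocyte progenitors, fell by 4.82 (adjusted p = 0.00036). Relatives in the cluster can share sequence, and Ms4a4b, read at 7.26, 4.25 and 7.53 in the WT arrays, did not pass.

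Neutrophil granules carry proteases and peptides made in steps from the promyelocyte on. Of these genes 1 of 22 fell, Ms4a3, and 1 rose, Anxa1, an anti-inflammatory phospholipid-binding protein (1.16, adjusted p = 0.0106). The primary granule genes Mpo, read at 13.44, 13.44 and 13.40 in KI and 13.27, 13.10 and 12.83 in WT, Elane and Prtn3 did not pass, with differences of 0.36, -0.57 and -0.23.

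Innate sensors fell in 4 of 28 cases and rose in none. Tlr3, the sensor of double-stranded RNA, read 3.34, 3.33 and 2.70 in KI and 8.26, 9.38 and 11.06 in WT (-6.44 ± 0.70, SE, adjusted p = 0.00111). The WT arrays themselves spread over almost 3 log2 units, with replicate 3 highest. Ly86 and Cd180 encode MD-1 and RP105, which form a complex on B cells and myeloid cells, and both fell: Ly86 read 3.02, 3.50 and 3.58 in KI and 10.45, 8.42 and 10.60 in WT (-6.46, adjusted p = 0.000286) and Cd180 fell by 3.63 (adjusted p = 0.0131). Tlr13, a sensor of bacterial ribosomal RNA, fell by 1.49. Tlr4, the endotoxin receptor, differed by -2.61 and did not pass (adjusted p = 0.0552), while 1 of its other 3 probe sets was called lower (-2.32, adjusted p = 0.0104). Without KI replicate 1 or 2 the count of fallen sensors was 2, and 6 fell against the WT array of low Xist alone.

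Of the Fc receptors and ITAM adapters, 5 of 23 fell and 1 rose, the Fcgr3 described with the gate. Tyrobp, the adapter DAP12 of myeloid and NK receptors, read 9.38, 9.17 and 9.16 in KI and 12.21, 12.12 and 12.33 in WT (-2.98 ± 0.31, SE, adjusted p = 0.000865). Fcgrt, the neonatal Fc receptor, read 5.34, 5.37 and 5.50 in KI and 8.25, 7.91 and 8.04 in WT, with less than 0.4 between the replicates of a group (-2.66, adjusted p = 0.00019). The high-affinity IgG receptor Fcgr1, the B cell Fc receptor-like Fcrla and the kinase Btk fell, with differences of -1.86, -2.86 and -1.96. The gamma chain Fcer1g, which pairs with several of these receptors, differed by 0.32 and did not pass. Without KI replicate 2 or 3 the count of fallen members was 3.

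**Figure D2:**
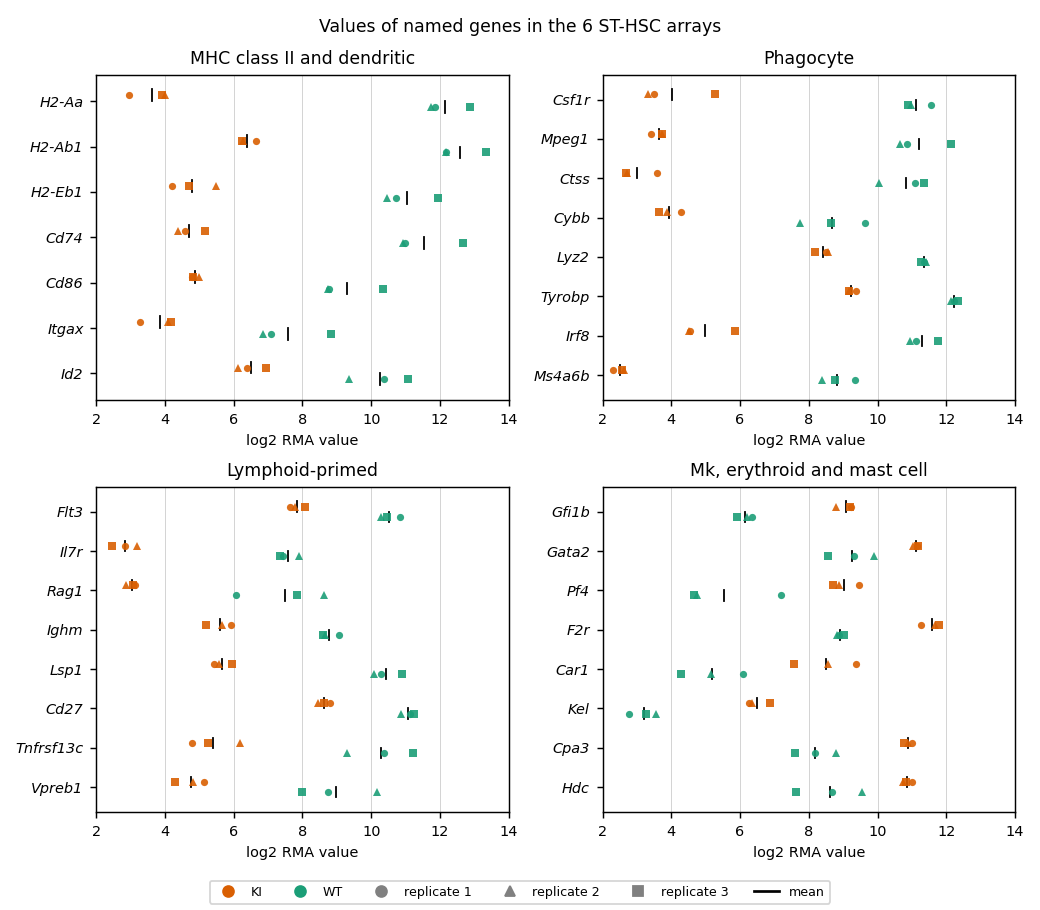
Log2 RMA values (horizontal axis) of named genes in the 6 ST-HSC arrays, in 4 panels by program. Orange symbols are KI, green symbols WT, shapes give the replicate number and bars the group mean. All genes shown were picked from the called ones, in none of which KI and WT overlap, as in 22.1% of all genes. By that choice KI lies left of WT in the first 3 panels. It lies right of WT in the panel of megakaryocyte (Mk), erythroid and mast cell genes.

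Dendritic cell genes fell in 5 of 19 cases, and 18 were below 0 (median -0.98). Against the WT array of low Xist alone 7 fell and the median was -0.57. Beside Irf8, Id2 and Flt3, these were the integrin Itgax, which encodes CD11c and read 3.27, 4.10 and 4.17 in KI and 7.08, 6.86 and 8.83 in WT (-3.74, adjusted p = 0.00157), and the lectin Klrd1, better known from NK cells (-2.47, adjusted p = 0.0061). WT replicate 3 was the highest WT array in Xcr1, Itgae and Cadm1, known from the cross-presenting dendritic cell subset. Of these, Itgae and Cadm1 are not on the dendritic list. Batf3, which is on the list, differed by -0.54 and did not pass (adjusted p = 0.406). Xcr1, the chemokine receptor of that subset, read 4.50, 4.37 and 8.70 in the WT arrays and 3.77, 3.79 and 4.51 in KI and did not pass. Itgae, which encodes CD103, read 6.13, 8.40 and 9.77 in WT and 4.47, 4.51 and 4.22 in KI (-3.70, adjusted p = 0.017). Cadm1, an adhesion molecule of the same cells, read 10.31, 9.49 and 12.25 in WT and 5.00, 5.59 and 4.90 in KI (-5.52 ± 1.0, SE, adjusted p = 0.0166). The mean log2 level of the dendritic list was 6.64, 6.43 and 7.51 in WT replicates 1 to 3 and 5.02 to 5.38 in KI. Without WT replicate 3, 4 dendritic cell genes and 8 class II genes were called lower.

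Interferon response genes were below 0 in 31 of 32 cases (median -0.98), and 8 fell. Oas1a, an activator of RNase L, read 5.55, 6.36 and 6.45 in KI and 9.95, 8.80 and 9.25 in WT (-3.21, adjusted p = 0.00611). Ifit1 fell by 2.96 (adjusted p = 0.0358), Trim30a fell by 2.13 (adjusted p = 0.00378) and Mx1, an antiviral GTPase, fell by 1.05 (adjusted p = 0.01). WT replicate 2, the WT array of low Xist, was the lowest WT array in the mean of this list (7.05, against 7.57 and 7.89). Without the WT arrays of high Xist 3 members fell and the median was -0.54. Leaving out KI replicate 1, KI replicate 2 or WT replicate 3 gave 4, and leaving out WT replicate 2 gave 5. The part of the sex of the animals in these values was not tested further.

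Lymphoid-primed progenitors keep lymphoid and myeloid potential and express antigen receptor genes early. Of 25 genes of lymphoid-primed progenitors 9 fell and none rose (median -1.11). Rag1, the recombinase subunit of antigen receptor genes, read 3.14, 2.87 and 3.07 in KI and 6.06, 8.62 and 7.84 in WT (-4.47 ± 0.48, SE, adjusted p = 0.00101). Ighm, the mu heavy chain, read 5.93, 5.65 and 5.20 in KI and 9.07, 8.65 and 8.59 in WT (-3.18, adjusted p = 4.29e-05). Lsp1, a leukocyte actin-binding protein, read 5.43, 5.58 and 5.94 in KI and 10.29, 10.09 and 10.89 in WT (-4.77, adjusted p = 0.00268). Cd27 fell by 2.45 (adjusted p = 0.023), Wfdc17 fell by 3.60 (adjusted p = 0.00684) and Ltb, a tumor necrosis factor family ligand, fell by 0.93 (adjusted p = 0.0102). Dntt, which adds bases at antigen receptor joints, differed by -0.98 and did not pass.

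Early B lineage genes fell in 11 of 29 cases. Vpreb1, a surrogate light chain component, read 5.14, 4.83 and 4.29 in KI and 8.74, 10.16 and 8.0 in WT (-4.21, adjusted p = 0.0421). Tnfrsf13c, the BAFF receptor, read 4.80, 6.17 and 5.24 in KI and 10.38, 9.29 and 11.21 in WT (-4.89 ± 0.62, SE, adjusted p = 0.0022), and Tnfrsf13b, its relative TACI, fell by 2.56 (adjusted p = 0.002). Cd24a, a surface glycoprotein, Cd79b, a signaling chain of the B cell receptor, and Bank1, a B cell scaffold, fell as well (-2.47, -2.29 and -2.21). Igll1, the other surrogate light chain part, read 7.21, 9.32 and 4.37 in the WT arrays against 4.40, 3.86 and 4.35 in KI, so that WT replicate 3 overlapped KI, and it did not pass. Leaving out 1 array gave 6 to 10 fallen members, with 7 without KI replicate 1 and 6 without KI replicate 2 or 3.

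T and NK cell genes were mixed, with 4 of 27 lower and 3 higher. The rises were those of the cytotoxic granule genes Gzmb (1.18, adjusted p = 0.00503), Prf1 (0.80, adjusted p = 0.0201) and Nkg7, which read 10.19, 9.92 and 9.74 in KI and 8.18, 8.61 and 8.20 in WT (1.62, adjusted p = 0.00301). Thy1, Cd28, Klrd1 and Cd27 fell, Cd28 from 5.43, 5.55 and 4.89 in WT to 3.30, 3.21 and 3.31 in KI. The CD3 chains Cd3d, Cd3e and Cd3g did not pass (differences of 0.11, 0.11 and 0.72). The count of falls was 2 without any 1 array except WT replicate 2, and without the WT arrays of high Xist there were 2 falls and 1 rise.

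Megakaryocyte and platelet genes rose in 8 of 30 cases and fell in 1 (median 0.76). Gfi1b, a repressor that erythroid and megakaryocytic differentiation requires, read 9.23, 8.79 and 9.19 in KI and 6.36, 6.20 and 5.90 in WT, 7.57-fold higher (2.92 ± 0.19, SE, adjusted p = 3.83e-05). F2r, the thrombin receptor, read 11.27, 11.67 and 11.79 in KI and 8.87, 8.83 and 9.01 in WT (2.67, adjusted p = 0.0203). Pf4, the platelet chemokine, read 9.47, 8.87 and 8.69 in KI and 7.18, 4.74 and 4.65 in WT (3.49 ± 0.78, SE, adjusted p = 0.0483), and WT replicate 1 stood more than 2 log2 units above the other WT arrays. Gp1bb, part of the von Willebrand factor receptor, Clec1b, the podoplanin receptor of platelets, the PDZ-LIM protein Pdlim1 and the G protein subunit Gng11 rose by 1.72, 1.46, 1.42 and 1.07.

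The integrin chains Itga2b and Itgb3 of the platelet fibrinogen receptor did not pass (1.29, adjusted p = 0.0844, and 1.98, adjusted p = 0.0725). Both were higher in all 3 KI arrays than in any WT array, and KI and WT arrays were apart, in either direction, in 22.1% of all genes. Gp9, Ppbp and Tubb1, which mark later megakaryocytes, differed by -0.01, -0.30 and -0.08. The count of risen members fell to 3 when any of the KI arrays or WT replicate 3 was left out, and was 5 without WT replicate 2.

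Erythroid and megakaryocyte transcription factors rose in 3 of 15 cases. Gata2, a factor of progenitors and mast cells, read 11.14, 11.03 and 11.17 in KI and 9.30, 9.90 and 8.57 in WT (1.86 ± 0.38, SE, adjusted p = 0.0325). The KI arrays lay within 0.2 of each other and the WT arrays within 1.4. Gata1, the erythroid factor that PU.1 is known to antagonize, read 8.23, 7.78 and 7.59 in KI and 5.95, 6.59 and 6.53 in WT and narrowly did not pass (1.51, adjusted p = 0.0543). Nfe2 rose by 0.80 (adjusted p = 0.0356), while Klf1, the factor of late erythroid genes, differed by 2.58 and did not pass (adjusted p = 0.153). Bcl6, a repressor of germinal center B cells that was on this list, fell by 1.49 (adjusted p = 0.0483). The count of risen factors was 1 when KI replicate 2 or 3 or WT replicate 3 was left out.

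Among erythroid membrane and hemoglobin genes 6 of 24 rose and none fell. Car1, a carbonic anhydrase of early erythroid cells, read 9.36, 8.55 and 7.56 in KI and 6.08, 5.15 and 4.29 in WT (3.32, adjusted p = 0.00856). Kel, a blood group protease, read 6.27, 6.36 and 6.88 in KI and 2.77, 3.55 and 3.26 in WT (3.31 ± 0.39, SE, adjusted p = 0.00153). The erythroid membrane genes Ermap, Rhag, Add2 and Ank1, the latter pair of the membrane skeleton, rose by 2.31, 1.38, 1.08 and 0.91. The globin gene Hba-a1 read 3.64, 3.89 and 3.18 in KI and 3.58, 3.89 and 3.87 in WT and did not pass (-0.21, adjusted p = 0.793), and Hbb-bh1 and Hbb-y differed by 0.08 and -0.02. Without KI replicate 2 or 3, and without the WT arrays of high Xist, 3 members rose.

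In heme and iron metabolism 5 of 24 genes rose and 1 fell. Heph, a ferroxidase, read 7.35, 6.54 and 6.57 in KI and 3.29, 3.53 and 2.34 in WT (3.77, adjusted p = 0.0102), and Blvrb, biliverdin reductase B, read 9.24, 9.07 and 9.15 in KI and 7.33, 6.91 and 5.60 in WT (2.54, adjusted p = 0.0219). The transferrin receptor gene Tfr2, Slc40a1 (the iron exporter ferroportin) and Alas2, the first enzyme of erythroid heme synthesis, rose by 2.43, 1.98 and 0.97. Hfe, which signals iron status, fell from 8.30, 6.63 and 8.56 in WT to 3.60, 3.82 and 3.74 in KI (-4.11, adjusted p = 0.00173). Urod and Fech, later enzymes of heme synthesis, differed by 0.55 and 0.49 and did not pass, though 1 of the 4 probe sets of Fech was called higher. Without KI replicate 2 or WT replicate 3, 3 members rose.

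Mast cell, basophil and eosinophil genes rose in 7 of 25 cases and fell in 1. Cpa3, the mast cell carboxypeptidase, read 11.01, 10.88 and 10.76 in KI and 8.19, 8.78 and 7.61 in WT, 6.45-fold higher (2.69 ± 0.27, SE, adjusted p = 0.00062). Hdc, which makes histamine, read 11.01, 10.74 and 10.82 in KI and 8.68, 9.55 and 7.63 in WT (2.24, adjusted p = 0.0236). The basophil protease Mcpt8 and the leukotriene enzyme Alox5 rose by 1.57 and 2.08. In Cpa3, Hdc, Gata2 and Alox5, WT replicate 2 was the highest WT array and WT replicate 3 the lowest. Siglecf, an eosinophil lectin, fell by 2.79 (adjusted p = 0.00389), and Ms4a2, the IgE receptor beta chain, differed by -2.51 and did not pass. Leaving out 1 array gave 2 to 7 risen members, with 2 without each of the 3 KI arrays in turn, 3 without WT replicate 1 and 4 without WT replicate 3. The median of the list was 0.26 with all arrays and -0.12 without the WT arrays of high Xist.

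Stem cell genes changed in few cases, with 3 of 29 higher (Slamf1, Egr1 and Gata2) and 1 lower (Cd34). Without KI replicate 2 or 3, 1 of these rises was called. Hlf, Mecom, Fgd5 and Hoxb5, which mark long-term stem cells, differed by -0.05, 0.02, 0.13 and -0.03 and did not pass. Imprinted growth regulators rose in 4 of 20 cases and fell in none. Plagl1, an imprinted zinc finger factor, read 9.44, 10.22 and 10.60 in KI and 5.53, 5.21 and 6.46 in WT, 20.4-fold higher (4.35 ± 0.55, SE, adjusted p = 0.00221), and 1 of its 3 probe sets were called higher. Grb10, a brake on growth factor receptors, read 11.65, 11.59 and 11.53 in KI and 9.04, 10.45 and 9.40 in WT with 3 of 3 probe sets called (1.96, adjusted p = 0.0104). Peg10, a gene derived from a retrotransposon, and Gnas, a G protein subunit, rose by 1.38 and 0.60, while Igf2 and Meg3 did not pass (0.91 and -0.04). Without KI replicate 2, 2 imprinted genes were called higher.

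Genes of proliferation, survival and energy metabolism held few calls. Of 41 cell cycle genes 1 rose, Mki67 (11.54, 11.49 and 11.55 in KI, 10.67, 10.08 and 10.35 in WT, adjusted p = 0.0122), and the median was -0.01. Pcna and Ccnb2, of DNA replication and of mitosis, differed by -0.09 and 0.06 and did not pass. Of the apoptosis genes 1 of 24 rose, Perp, described with the largest rises. In glycolysis 1 of 22 fell: Ldhb, a lactate dehydrogenase subunit, read 7.07, 7.11 and 7.69 in KI and 10.64, 10.78 and 10.19 in WT with all 4 probe sets called (-3.24 ± 0.23, SE, adjusted p = 7.16e-05), while its partner Ldha differed by 0.18 and did not pass.

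The smaller remaining groups held few calls. Chemokines and their receptors fell in 4 of 33 cases, Ccr2 and Cxcr3 (-3.10, adjusted p = 0.0028) among the receptors and Ccl6 (-3.08) and Ccl9 (8.22, 8.28 and 8.62 in KI, 11.42, 10.55 and 10.93 in WT) among the ligands. Integrins and adhesion molecules fell in 3 of 33, with Jam2 (-1.21) beside Itgax and Itgae, and Itgam, the CD11b chain, did not pass (-0.61). Of the immediate early and stress genes Klf4 and Btg2 (-1.55) fell and Egr1 rose, among 29. Of the growth factor, BMP and TGF-beta genes 3 of 29 fell, Id2, Id3 and Igfbp4 (-0.64). Against the WT array of low Xist alone 1 of these was called.

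Markers of other liver cells were checked on the same arrays. Hepatocyte genes gave 2 falls, Afp (5.52, 5.88 and 5.89 in KI, 7.18, 7.55 and 7.15 in WT) and Hnf4a (-2.81, adjusted p = 0.0165), and 1 rise, Apoc1 (2.17), of 18. Alb differed by -1.60 and Ttr by -0.63 and did not pass, and the mean level of the list was 5.22 to 5.34 in KI and 5.47 to 5.85 in WT. None of 22 endothelial and stromal genes passed. The part of admixed hepatocyte RNA in the differences above was not tested.

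Genes long described as PU.1 targets fell in 14 of 35 cases and rose in 1, with a median of -1.39 (11 to 14 falls with 1 array left out). The targets did not share 1 behavior. Csf1r, Ctss, Irf8, Cybb and Il7r fell by more than 4 on the log2 scale, Ptprc and Ncf1 fell as well (-2.62 and -1.75), Csf2rb rose, and the integrin chain Itgb2, Mpo, Fcer1g and Junb did not pass, at differences of -0.23, 0.36, 0.32 and -0.29.

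**Figure D3:**
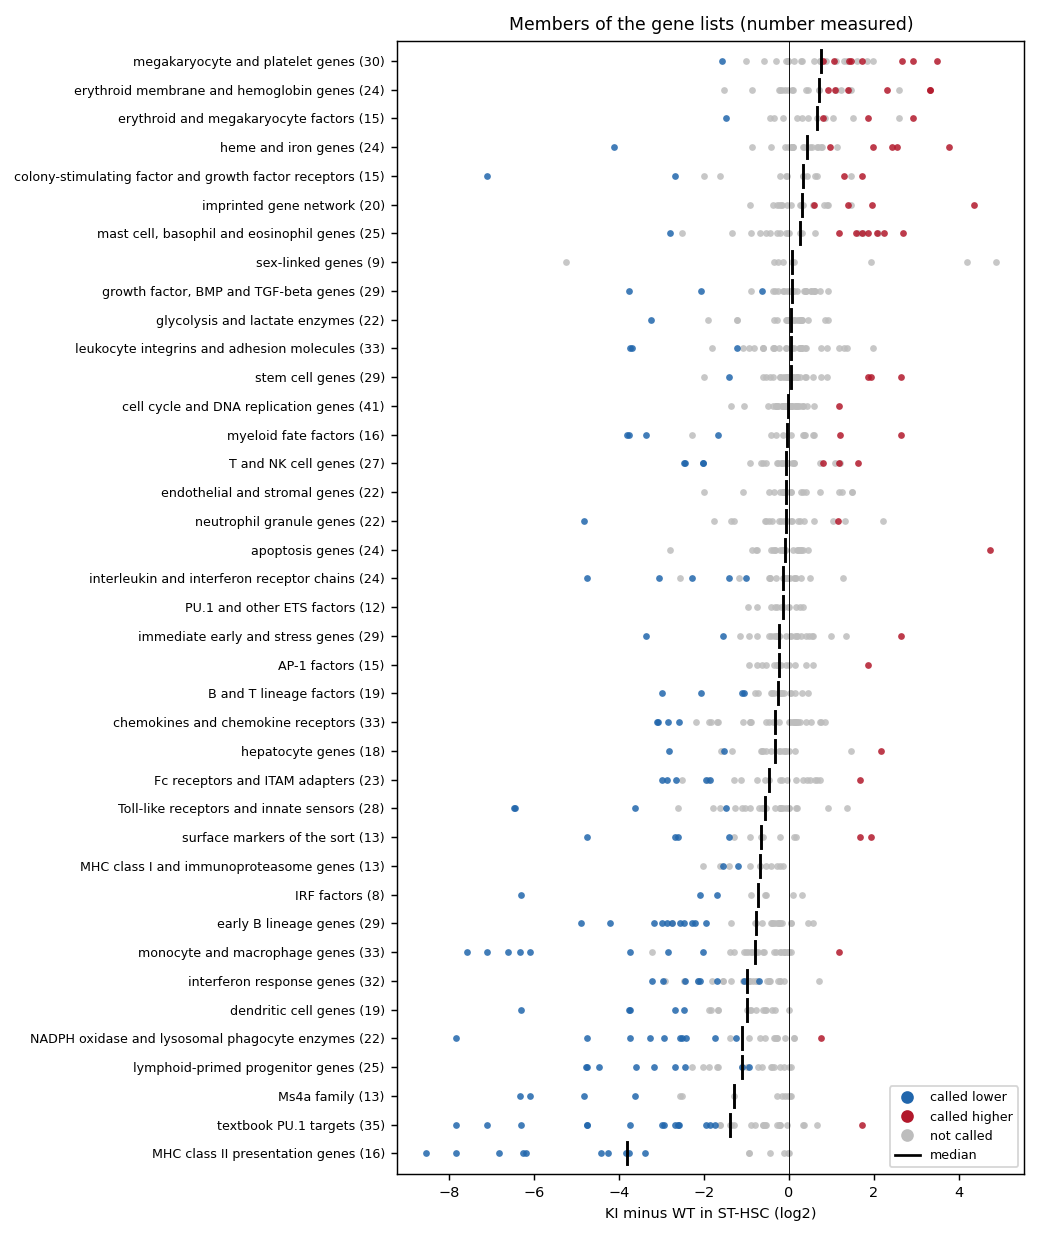
KI minus WT in ST-HSC (log2, horizontal axis) for the measured members of each gene list, 1 point per gene, ordered by the median of the list (black bar). Blue points were called lower, red points higher and grey points were not called. MHC class II presentation genes lie lowest at a median of -3.80 and megakaryocyte and platelet genes highest at 0.76.

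The largest rises were spread over genes of varied function. Mgam, an intestinal and leukocyte glucosidase, read 11.21, 11.07 and 10.60 in KI and 8.50, 3.38 and 3.86 in WT, where replicate 1 was more than 4 log2 units above the others (5.71 ± 1.04, SE, adjusted p = 0.0167). The same WT replicate was also the highest in Klf9 (7.49, 4.70 and 4.55), Rnf217 (7.49, 4.34 and 4.87) and Mfsd2b (5.74, 2.57 and 3.17), whose KI arrays all read higher (9.76, 9.77 and 10.03, 9.85, 9.91 and 10.26 and 7.45, 6.97 and 7.43). Perp, a tetraspan protein of desmosomes and of p53-dependent death, read 11.34, 11.30 and 11.49 in KI and 6.56, 7.64 and 5.71 in WT, 26.7-fold higher (4.74 ± 0.41, SE, adjusted p = 0.000225). Npnt, a matrix ligand of integrins, was uneven in KI (4.87, 8.51 and 9.71) and low in WT (2.94, 3.04 and 2.88), and was not called against the WT array of low Xist alone (adjusted p = 0.215).

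Other large rises were tight within groups. Pdzph1 read 7.06, 6.99 and 7.08 in KI and 3.41, 2.98 and 3.15 in WT (3.86 ± 0.21, SE, adjusted p = 1.32e-05). Ptprf, a receptor phosphatase of cell contacts, read 7.60, 7.58 and 7.99 in KI and 4.24, 3.57 and 3.44 in WT (3.97, adjusted p = 0.000109). Dnajc6, the auxilin that uncoats clathrin vesicles, Cyp11a1, the first enzyme of steroid synthesis, and Csrp3, a muscle LIM protein, rose by 3.75, 3.51 and 3.37. S100a16, Zfp711, Fam169a and Homer2 rose by 3.55, 3.37, 3.27 and 3.27.

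Of the largest falls not yet described, Nckap1l encodes Hem-1, the hematopoietic subunit of the actin-regulating WAVE complex. It read 4.71, 4.62 and 5.40 in KI and 9.90, 9.89 and 10.52 in WT (-5.19 ± 0.26, SE, adjusted p = 1.05e-05). Nckap1, the subunit of other tissues, which was chosen after its values were seen, moved the opposite way, from 5.72, 4.86 and 6.06 in WT to 8.22, 8.39 and 8.89 in KI (2.96, adjusted p = 0.0108). Rnase6, a secreted ribonuclease of monocytes, read 3.50, 3.54 and 3.11 in KI and 9.15, 9.18 and 9.99 in WT (-6.06, adjusted p = 0.000109). The matrix protein Tgfbi, the protein kinase A inhibitor Pkib, the secreted olfactomedin Olfm1 and the interferon-inducible Ifi209 fell too, with differences of -5.03, -5.20, -5.03 and -5.38.

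To show the DNA beside these values, promoter windows of RefSeq (GRCm38.p6, 250 bases before to 50 after the start) were read for genes with 1 window. GAGGAAGT, a run of letters that PU.1 is known to favor, stood on either strand in 5.05% of 198 windows of genes called lower, 4.08% of 147 of genes called higher and 2.96% of all 11791. The shorter GGAAGT, which lies within GAGGAAGT, stood in 29.8%, 22.4% and 26.4%. TGANTCA, the letters of an AP-1 site, stood in 7.58%, 6.8% and 6.15%, and TGACGTCA, which CREB and some AP-1 dimers bind, in 3.03%, 1.36% and 2.7%. These shares are a description and were not tested. Shown are 7 called genes with a log2 difference over 2.5. Each holds 1 of the 8-letter runs whole in the 100 bases before the start. They need not be all the called genes that meet this rule, because only part of the genes was searched. The run is in capitals, and each sequence is read 5′ to 3′ on the strand of the gene.

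H2-Aa (chr17:34287824-34287923, minus strand, KI minus WT -8.54): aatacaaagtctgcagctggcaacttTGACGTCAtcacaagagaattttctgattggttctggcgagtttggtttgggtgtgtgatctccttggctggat
Btla (chr16:45224237-45224336, plus strand, KI minus WT -4.52): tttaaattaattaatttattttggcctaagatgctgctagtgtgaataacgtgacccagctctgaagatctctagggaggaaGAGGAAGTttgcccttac
Cxcr3 (chrX:101734148-101734247, minus strand, KI minus WT -3.10): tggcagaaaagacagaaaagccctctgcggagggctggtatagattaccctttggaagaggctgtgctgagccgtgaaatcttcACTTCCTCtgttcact
Havcr2 (chr11:46454831-46454930, plus strand, KI minus WT -2.68): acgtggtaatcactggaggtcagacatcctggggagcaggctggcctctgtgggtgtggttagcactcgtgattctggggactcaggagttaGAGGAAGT
Tubb2a (chr13:34078009-34078108, minus strand, KI minus WT -2.64): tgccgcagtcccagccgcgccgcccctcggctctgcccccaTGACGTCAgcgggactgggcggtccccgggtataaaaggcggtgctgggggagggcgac
Dio2 (chr12:90739039-90739138, minus strand, KI minus WT 2.74): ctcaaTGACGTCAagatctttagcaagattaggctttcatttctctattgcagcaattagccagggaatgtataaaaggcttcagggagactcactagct
Pf4 (chr5:90772335-90772434, plus strand, KI minus WT 3.49): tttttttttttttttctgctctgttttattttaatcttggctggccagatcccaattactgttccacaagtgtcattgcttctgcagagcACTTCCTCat

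In H2-Aa the run lies 74 to 67 bases before the start. In Btla, which encodes an inhibitory receptor of lymphocytes and read 6.35, 5.39 and 5.42 in KI and 10.43, 9.41 and 10.88 in WT (-4.52, adjusted p = 0.00301), the run GAGGAAGT ends 11 bases before it. Havcr2, another inhibitory receptor, read 4.60, 4.88 and 5.19 in KI and 6.59, 7.92 and 8.20 in WT (-2.68, adjusted p = 0.00284), and the run touches its start. In Cxcr3 and Pf4 the run is on the opposite strand and appears as ACTTCCTC. Pf4 and Cxcr3 thus hold the same letters close to the start and moved in opposite directions, by 3.49 and -3.10. Tubb2a, a beta tubulin, fell by 2.64 (adjusted p = 0.0164), and Dio2, a thyroid hormone deiodinase, rose by 2.74 (adjusted p = 0.00296), both with TGACGTCA. Btla, Havcr2, Tubb2a and Dio2 were named after their values were seen, for these letters.

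The KI effect in ST-HSC was set beside that in GMP, which was measured on separate arrays in the same fit. Of the 311 genes lower in ST-HSC, 278 were also below 0 in GMP and 97 (31.2%) were called lower there, against 1.41% of all genes. Of the 243 higher genes, 73 were called higher in GMP, against 1.21% of all genes. Both tests took the spread of a gene from the same fit, so a gene of small spread was favored for a call in both populations. WT arrays of high Xist were also present in both populations. The shares of calls are therefore not independent of those in ST-HSC, and how far this raised them was not tested. The test of the difference between the populations called 10 genes (0.055%). Ms4a6b differed by -6.04 in GMP and by -6.32 in ST-HSC, and Nckap1l by -5.12 and -5.19.

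The lists are set side by side without a test of their difference. The class II list had a median of -1.33 in GMP with 3 falls, and the lymphoid-primed list a median of 0.06 with 3. H2-Eb1 differed by -1.29 in GMP, and the test of the difference between populations did not call it (adjusted p = 0.11). Cd34 was lower in KI GMP as well by limma (-2.87, adjusted p = 6.98e-06), and the difference between the populations was not called (adjusted p = 0.0559). The paper sorted WT GMP as CD34+ and the KI GMP-like cells as CD34 intermediate, so these groups were gated apart on this protein. The part of the gate in the Cd34 value was not tested. The paper's table of GMP-like cells lists Cd34 at the same size with the opposite sign. Ighm was among the 10 genes called, lower in ST-HSC and at 0.36 in GMP (adjusted p of the difference = 0.00271).

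**Figure D4:**
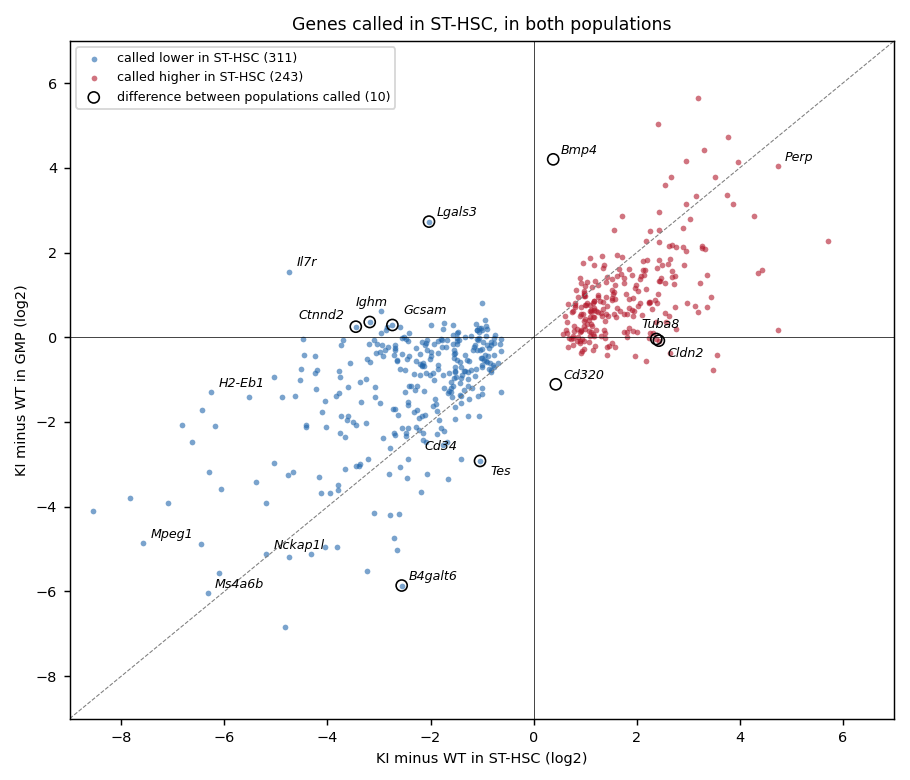
KI minus WT (log2) in ST-HSC on the horizontal axis and in GMP on the vertical axis for genes called in ST-HSC, blue lower and red higher, with equal differences on the dashed line. Black rings are the 10 genes whose difference between the populations was called, of which Bmp4 and Cd320 were not called in ST-HSC. Most genes keep their sign, 278 of 311 lower and 213 of 243 higher ones.

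Without the WT arrays of high Xist all 311 lower and all 243 higher genes kept their sign. That was fixed in advance, because in every called gene the KI arrays lay on 1 side of all WT arrays. The 1 WT array left has no spread of its own, and its spread was taken from the other groups. Beside those already given, several medians of lists moved by over 1.5 times without the WT arrays of high Xist. They included -0.40 for the Ms4a family (-1.29 with all arrays), -0.09 for Fc receptors and adapters (-0.46) and -0.51 for monocyte and macrophage genes (-0.80). The early B genes moved to -1.24 (-0.77) and the erythroid and megakaryocyte factors to 0.33 (0.65). Smaller medians moved too, among them to 0.18 for imprinted genes (0.31), 0.21 for the growth factor receptors (0.34) and -0.37 for neutrophil granule genes (-0.08). Some small medians changed sign, among them those of stem cell genes (0.06 to -0.14) and of immediate early and stress genes (-0.23 to 0.03). That of the myeloid fate factors moved from -0.04 to 0.13. Genes on the X chromosome made up 3.86% of the lower and 3.7% of the higher genes, against 3.39% of all genes. Of the 178 called genes named in the text, 53 were not called that way. Beside Csf1r, Ptprc, Irf9, Tap1, Psmb8 and Npnt they included Mef2c (adjusted p = 0.0733), Thy1 (adjusted p = 0.0512) and Gzmb (adjusted p = 0.0862). Fcrla differed by -1.36 against -2.86 with all WT arrays, and Mgam by 7.58 against 5.71.

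**Figure D5:**
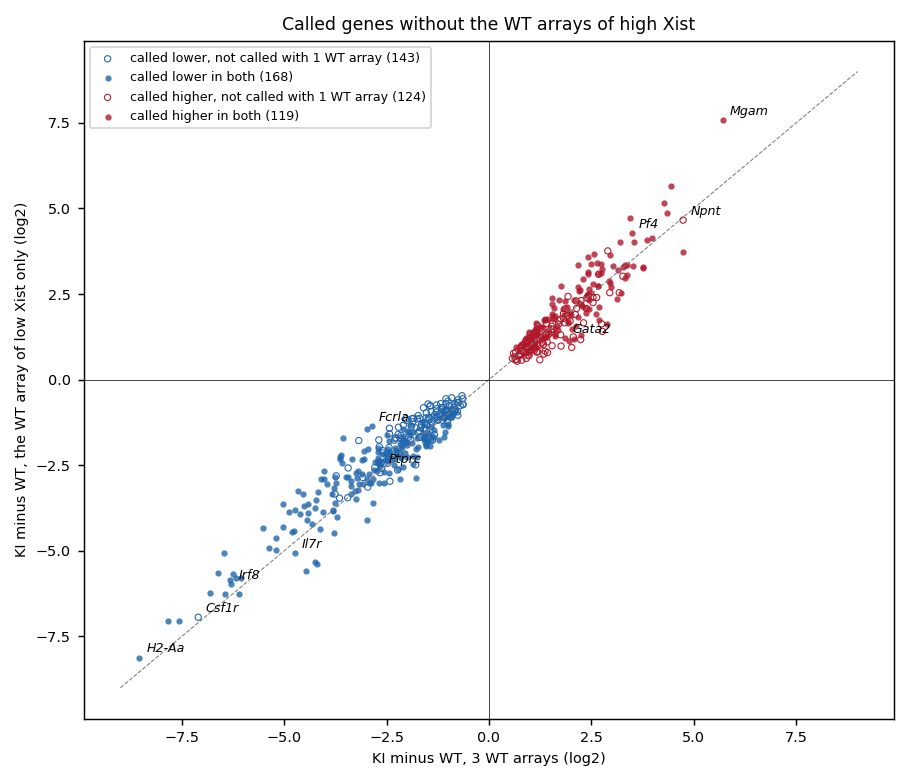
KI minus WT in ST-HSC (log2) of the called genes with all 3 WT arrays on the horizontal axis and with the WT array of low Xist alone on the vertical axis. Filled points stayed called, 168 lower and 119 higher, and open points did not. No point changes sign, which was fixed in advance because KI and WT arrays did not overlap in any called gene.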

How the data were processed

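RNA from sorted cells was amplified and hybridised to Affymetrix MG430 v2 arrays, of which 12 were deposited as a table of log2 values that the authors had made by RMA. The number of arrays limits the precision, and no detection call was in the table. The 64 control probe sets were left out, and KI was compared with WT on the remaining 45037 probe sets with limma 3.58.1 in R 4.3.3, as the mean of 3 arrays a group in 1 fit of all 4 groups (8 residual degrees of freedom). P-values were adjusted by Benjamini and Hochberg's method. Probe sets were named from the platform annotation (34945 with 1 symbol, 932 with several, 9160 with none). For a gene with several probe sets, the brightest on average in ST-HSC stood for it. Named are the 20 largest rises and falls whose groups did not overlap, the leading and defining members of 39 lists (733 of 815 genes measured), the sort and sex-linked markers and the 10 genes with the smallest p between populations. These members, lists and rules were chosen with earlier results of these data known. The fit was tested on simulated data. Alternatives concerned samples, scaling, filters, tests, replicates, pairing and Xist.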

Additional observations from a re-analysis of the deposited data

Results flagged for a closer look

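The effect of KI in GMP was compared with that in ST-HSC by the interaction term of the same limma fit, and 10 genes passed at an adjusted p under 0.05. Each value is KI minus WT in GMP less KI minus WT in ST-HSC, on the log2 scale. For 5 of them the gene was higher by this measure in GMP after a fall in ST-HSC or no call there: Lgals3 differed by 4.76 (adjusted p = 0.0192), with -2.03 in ST-HSC and 2.73 in GMP, and is the 1 called lower gene that was called higher in GMP. Bmp4, a secreted growth factor, differed by 3.82 (adjusted p = 0.013), and its call was in GMP (4.20 against 0.38 in ST-HSC). Ctnnd2, a catenin, differed by 3.71 (adjusted p = 0.00545), Ighm by 3.54 (adjusted p = 0.00271) and Gcsam, a germinal center B cell gene, by 3.03 (adjusted p = 0.00629), and these 3 fell in ST-HSC (-3.45, -3.18 and -2.74).

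The others were lower by this measure in GMP. B4galt6, which makes lactosylceramide, differed by -3.29 (adjusted p = 0.0365) and fell in both populations (-2.56 in ST-HSC, -5.86 in GMP), as did the LIM protein gene Tes, which differed by -1.88 (adjusted p = 0.0365). Cldn2, a claudin of tight junctions, differed by -2.52 (adjusted p = 0.00271) and Tuba8, an alpha tubulin, by -2.43 (adjusted p = 0.0445), both higher in KI ST-HSC (2.43 and 2.38) and near 0 in GMP (-0.08 and -0.04). Cd320, the transcobalamin receptor, differed by -1.54 (adjusted p = 0.0414).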

How the results depend on the processing

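The main counts were 243 genes higher and 311 lower. With 1 array left out they ranged from 104 to 238 higher and from 169 to 332 lower. The higher count was 155, 104 and 118 without KI replicates 1, 2 and 3 and 150 without WT replicate 3, and the lower count was 169 and 199 without KI replicates 2 and 3. SAM, the test of the methods, called 21 higher and 73 lower on the 6 ST-HSC arrays, and the methods' t-test called 1154 and 1281 at its threshold and 1 and 4 after Benjamini-Hochberg. With a log2 difference over 2 required the counts were 90 and 171. With only the 6 ST-HSC arrays in the fit the counts were 163 and 250.

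Same-numbered KI and WT arrays had low correlations of their deviations, from 0.034 to 0.074, and each array correlated best with its own number. Whether a number stands for a shared litter or batch is not given in the records. A replicate block gave 137 higher and 208 lower genes. With the Xist level as a covariate the counts were 204 and 224. Of the 178 called genes named in the text, 55 stayed called by SAM and 4 by the methods' t-test after Benjamini-Hochberg. With only the 6 ST-HSC arrays in the fit 136 stayed called, and by the methods' t-test at its threshold all 178 did. Of the 178, 0 changed sign under the 22 settings. Most settings left out arrays or probe sets or changed the test, which could not change a sign. Only the scalings and the Xist covariate could. The median of the mast cell, basophil and eosinophil list was 0.26 with all arrays and -0.12 without the WT arrays of high Xist, and that of the class II list was -3.34 there and -3.23 with all probe sets of a gene averaged. With 3 arrays a group the spread of a gene rests on few values, and without the WT arrays of high Xist the lone WT array was taken to vary like the other groups. The causes of these shifts were not tested.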

Other observations

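A set of genes outside the lists, chosen after their values were seen, also differed between KI and WT ST-HSC by limma. They are single genes and stand for no group. Tjp1, which encodes the tight junction protein ZO-1, read 7.23, 8.22 and 9.44 in KI and 4.65, 6.66 and 5.32 in WT (2.75, adjusted p = 0.0396). Myo6, an actin motor, and Shroom3, an organizer of apical actin, rose by 2.61 (adjusted p = 0.00244) and 2.07 (adjusted p = 0.0028). Adamts1, a secreted protease, rose by 2.97, the metalloprotease inhibitor Timp3 by 2.77 and the proteoglycan Sdc2 by 3.15.

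Other single genes outside the lists, chosen the same way, were lower in KI. P2ry6, a receptor for nucleotides, read 4.46, 4.44 and 4.72 in KI and 8.29, 9.86 and 8.18 in WT (-4.24, adjusted p = 0.0028). Cysltr1, a leukotriene receptor, read 4.22, 3.20 and 2.75 in KI and 7.98, 6.66 and 8.01 in WT (-4.17, adjusted p = 0.0136). The inhibitory receptors Cd300a and Cd33 differed by -4.05 (adjusted p = 1.05e-05) and -3.35 (adjusted p = 0.0164). Met, the receptor of hepatocyte growth factor, read 5.34, 4.97 and 5.33 in KI and 9.03, 9.04 and 8.97 in WT (-3.80, adjusted p = 0.00113).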
